A study of Mus musculus with 4 samples.

Results

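Disease-associated microglia are marked by a set of genes, of which 10 were followed: Apoe, Lpl, Fabp5, Spp1, Igf1, Lgals3, Gpnmb, Cd9, Cd52 and Lyz2. They were chosen by name, and their transcripts were found by identifier in the 4 deposited files, so the set held 10 of the 35427 genes listed. Of these, 9 had enough reads to pass the filter that left 14907 measured genes, and Gpnmb did not. RNA came from the hippocampus of mice on the C57BL/6J strain, 4 months old, with P2RY12CreER, a Cre recombinase driven by a microglial gene, and Rpl22HA RiboTag, a ribosomal protein that Cre equips with a tag so that ribosome-bound messages can be pulled down. All mice were fear conditioned, a training that pairs a place or cue with a shock. The control mice then slept for 6 h, and the sleep-deprived mice were kept awake for those 6 h. Groups were read from the sample titles, since the treatment field names sleep deprivation for all 4 samples, controls included. Each file pooled 2 mice and is described as a technical replicate, and each group had 2 files. The sources used here do not say when or how Cre was induced, and no input RNA was analysed here.

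Disease-associated microglia are a state that resident brain macrophages enter around amyloid plaques, dying cells and damaged myelin. The receptor Trem2 and its adaptor Tyrobp drive much of the state, in which microglia lower their resting genes and raise genes for lipid uptake, lysosomal digestion, surface proteins and secreted factors. The members fall into 3 handlers of lipid (Apoe, Lpl, Fabp5), 3 secreted or sugar-binding proteins (Spp1, Igf1, Lgals3), 3 surface proteins (Gpnmb, Cd9, Cd52) and 1 lysosomal enzyme (Lyz2). Several are not restricted to microglia: Apoe is made in quantity by astrocytes, and Igf1 by some inhibitory neurons.

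Depth was 14877011 and 14833320 estimated reads for the control pair of files and 14473030 and 14431647 for the sleep-deprived pair. Within a pair the counts differed by less than sampling noise allows, with a chi-square per degree of freedom of 0.335 between the control files and 0.228 between the sleep-deprived files, against 69.1 to 69.3 between groups. They were therefore counted as 1 sample (n = 1 per group), so no difference below has a replicate check and none has a p-value. All ratios are sleep-deprived over control. The range in brackets after a ratio is its 95% counting interval, which holds nothing about differences between mice or pulldowns. A gene was called higher or lower when its ratio was at least 2-fold and the interval excluded 1. This rule called 9.88% of the measured genes, 644 as higher (4.32%) and 829 as lower (5.56%). With the deposited TPM values, which are scaled by transcript length, 1371 were higher and 671 lower. The group label and the library cannot be told apart in this design.

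Of the 9 measured members, 3 were lower in the sleep-deprived library (Lgals3, Igf1 and Fabp5), 1 was higher (Lyz2) and 5 were not called. Against this stand the 5.56% lower and 4.32% higher among all measured genes. At 1.5-fold the same 1 higher and 3 lower were called, against 12.7% higher and 13.2% lower (25.9% together) of measured genes. With no filter on low counts the 10 members again gave 1 higher and 3 lower, against 3.67% and 4.96% of 20282 genes. The median log2 ratio of the 9 was 0.02 and that of all measured genes was 0.00. The summed CPM of all 10 (CPM is the count scaled to the TMM-corrected depth of its library) was 295 and 296 in the control files and 290.5 and 290.5 in the sleep-deprived ones, a ratio of 0.983 (0.942 to 1.03), and Apoe alone supplied most of it. The lowest and highest ratios were 0.131 for Lgals3 and 2.18 for Lyz2, so the members did not move as a block. In all 10 members the files of one group lay apart from those of the other, as they did in 96.2% of measured genes.

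**Figure D1:**
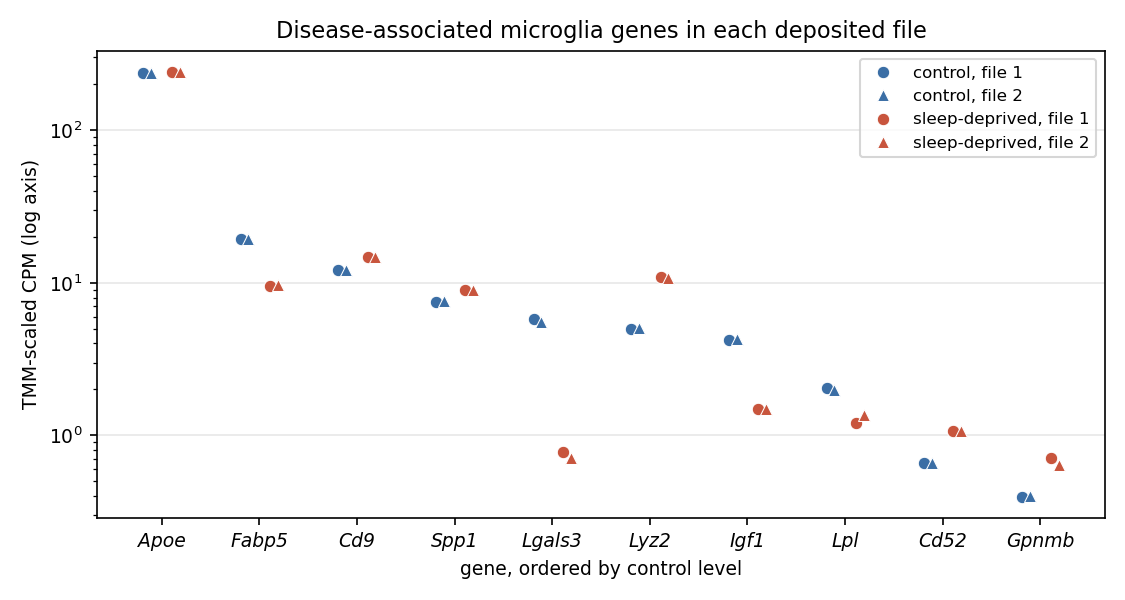
Level of each member in each deposited file, in TMM-scaled CPM on a log axis, with control in blue and sleep-deprived in red and the 2 files of a group as circle and triangle. The files of a group nearly coincide for every gene. Lgals3 falls from 5.81 and 5.57 to 0.779 and 0.710 CPM, while Apoe lies between 238 and 241 CPM.

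The stretches of DNA just before annotated starts of Lgals3 (called lower), Lyz2 (called higher), Spp1 and Apoe (neither called) are shown so that the members with the lowest and the highest ratio stand beside a pair that was not called. Each is the last run of 120 bases before the first annotated exon at that start, read 5′ to 3′ on the gene's strand, from RefSeq windows on GRCm38.p6. Windows were found for 7 of the 10 members. The Lgals3 stretch ends just before the start of the transcript Lgals3-201, which had 0 reads in every file. Lgals3-203, the transcript with nearly all Lgals3 reads, starts further in, at position 47373964. Capitals mark a match to 1 of 5 short motifs.
Lgals3, chr14:47373693-47373812, plus strand: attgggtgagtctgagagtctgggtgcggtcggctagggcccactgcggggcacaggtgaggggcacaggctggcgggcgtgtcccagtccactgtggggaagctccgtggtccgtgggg
Lyz2, chr10:117282322-117282441, minus strand: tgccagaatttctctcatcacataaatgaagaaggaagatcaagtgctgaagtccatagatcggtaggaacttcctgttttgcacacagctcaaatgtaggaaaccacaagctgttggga
Spp1, chr5:104434991-104435110, plus strand: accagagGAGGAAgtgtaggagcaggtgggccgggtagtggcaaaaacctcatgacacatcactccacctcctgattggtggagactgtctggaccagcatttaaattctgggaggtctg
Apoe, chr7:19699189-19699308, minus strand: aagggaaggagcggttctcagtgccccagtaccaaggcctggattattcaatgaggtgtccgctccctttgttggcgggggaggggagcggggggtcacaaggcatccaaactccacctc

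The motifs, searched on both strands, were GAGGAA (the core bound by PU.1, the master regulator of macrophage genes), TGANTCA (the AP-1 site), CACGTG (an E-box), TATAAA (the TATA box) and GGGCGG (the GC box). In the printed stretches only Spp1 held a match, a GAGGAA, and no match overlapped another. Over whole windows of 250 bases before to 50 after a RefSeq start, GAGGAA lay in 4 of the 10 windows of members and in 28.3% of 32851 windows of all genes. TGANTCA lay in 2 of 10 against 7.8%, TATAAA in 2 of 10 against 13.6%, GGGCGG in 2 of 10 against 35.7%, and CACGTG in 0 of 10 against 7.2%. These are descriptions of letters in a window, and binding was not measured.

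Apoe encodes apolipoprotein E, the main lipid carrier of the brain, on chromosome 7 (19696109 to 19699188, minus strand, GRCm38). It was at 238 and 239 CPM in the control files and at 241 and 241 CPM in the sleep-deprived files. The groups thus lay within about 1% of each other, with a ratio of 1.01 (0.964 to 1.06) on 3604.5 and 3400.0 reads. This narrow interval makes Apoe the most precisely measured member. With the deposited TPM summed per gene the ratio was 1.22, in a setting where the median of all measured genes was itself 1.16. Relative to that median Apoe was at 1.05. Scaled by total reads alone, the ratio was 0.969, so the direction of its small difference depends on the scaling.

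Lpl encodes lipoprotein lipase, which frees fatty acids from lipoprotein particles, on chromosome 8 (68880491 to 68907448, plus strand). It had 31 and 30 reads in control and 17 and 19 in the sleep-deprived files, which gave 2.05 and 1.99 CPM against 1.20 and 1.35 CPM. The ratio was 0.632 (0.332 to 1.17), so a difference was not detectable at this depth. Fabp5 encodes a fatty acid binding protein that carries lipids inside the cell, on chromosome 3 (10012548 to 10016607, plus strand). It was at 19.2 and 19.3 CPM in control and at 9.56 and 9.65 CPM in the sleep-deprived files. Its ratio of 0.499 (0.404 to 0.614) lay at the edge of the call: it was 0.5002 without control file 1, 0.501 without control file 2 and 0.561 with summed TPM, none of which passed 2-fold.

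Lgals3 encodes galectin-3, a lectin that binds sugars on damaged membranes and acts with Trem2, on chromosome 14 (47367751 to 47386160, plus strand). It had 88 and 84 reads in the control files and 11 and 10 in the sleep-deprived files, which gave 5.81 and 5.57 CPM against 0.779 and 0.710 CPM. Both sleep-deprived files lay far below both control files, and the control level was 7.65 times the sleep-deprived one, a ratio of 0.131 (0.0618 to 0.249). Of the 14907 measured genes 71 had a lower ratio. Over the settings tried the ratio ran from 0.124 to 0.153, and the gene was called in each.

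Igf1 encodes insulin-like growth factor 1, a trophic factor for neurons and myelin-forming cells, on chromosome 10 (87858265 to 87937042, plus strand). It had 64 and 65 reads in control and 21 in each sleep-deprived file, which gave 4.23 and 4.31 CPM against 1.49 and 1.49 CPM. The ratio was 0.349 (0.202 to 0.578), and 403 measured genes had a lower one. Markers of inhibitory neurons, which also express Igf1, summed to 556 and 556 CPM in the control files and to 343 and 345 CPM in the sleep-deprived ones, a summed ratio of 0.619 (0.597 to 0.641). The rule called 9.88% of all measured genes and 0 of the 5 measured markers. With coding transcripts only, the most abundant of them, Gad1, turned from 0.579 to 2.62. Their part in the Igf1 difference was not tested.

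Spp1 encodes osteopontin, a secreted phosphoprotein of the matrix, on chromosome 5 (104435118 to 104441050, plus strand). It was at 7.53 and 7.62 CPM in control and at 8.99 and 9.02 CPM in the sleep-deprived files. The sleep-deprived files were slightly above, and the ratio of 1.19 (0.916 to 1.54) had an interval that holds 1. Spp1 therefore did not share the lower level of the other 2 secreted members, Lgals3 and Igf1.

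Among the surface proteins, Cd9, a tetraspanin that organises membrane patches, was at 12.2 and 12.1 CPM in control and at 14.8 and 14.7 CPM in the sleep-deprived files, a ratio of 1.22 (0.993 to 1.49). The gene lies on chromosome 6 (125460266 to 125494791, minus strand). Cd52, a small surface glycoprotein of leukocytes, on chromosome 4 (134082448 to 134095082, minus strand), rested on 10 reads in each control file and 15 in each sleep-deprived file. Its ratio was 1.61 (0.675 to 4.00). Gpnmb, a transmembrane glycoprotein of lysosomes and the cell surface, on chromosome 6 (49036546 to 49070929, plus strand), had 6 reads in each control file and 10 and 9 in the sleep-deprived ones, a ratio of 1.70 (0.549 to 5.73). None of the 3 was called. The intervals of Cd52 and Gpnmb hold both 1 and 2, so a 2-fold higher level was not detectable at this depth.

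Lyz2 encodes lysozyme, the lysosomal enzyme of macrophages that cuts bacterial cell walls, on chromosome 10 (117277331 to 117282321, minus strand). It had 75 and 76 reads in control and 155 and 152 in the sleep-deprived files, which gave 4.96 and 5.04 CPM against 11.0 and 10.8 CPM. Both sleep-deprived files were above both control files, with a ratio of 2.18 (1.64 to 2.91), and 573 measured genes had a higher one. Macrophages at the brain's borders and blood myeloid cells also make lysozyme. The 7 border macrophage markers summed to 8.37 CPM for control and 11.9 CPM for sleep-deprived mice, with a ratio of 1.42 (1.12 to 1.80). Of the 4 measured, 2 were called higher and 0 lower, against 4.32% and 5.56% of all measured genes. The 2 most abundant were Cd163, called higher at 2.32 (1.48 to 3.73), and F13a1, not called at 0.976 (0.604 to 1.57). Lyve1 and Ms4a7 were named after their values were seen. Lyve1, the other one called, had 2 and 3 reads in the control files and 18 and 16 in the sleep-deprived ones. Ms4a7, which had too few reads to be measured, had 8 and 9 against 0 and 0. The 8 monocyte and neutrophil markers summed to 1.52 and 1.39 CPM in the control files against 2.34 and 2.20 CPM, a ratio of 1.56 (0.878 to 2.81), with Camp at 0 in every file. Of the 2 measured there, Ly6c2 was called higher, with 3 and 2 reads in the control files against 16 and 14. Ccr2 was not called at 1.22 (0.490 to 3.11). Ngp, not measured and also named after its values were seen, had 3 and 3 against 0 and 0. Lyve1 and Ly6c2 passed the filter on low counts only through the sleep-deprived library, where they were higher. The numbers called higher and lower in both lists are therefore partly set by that filter. The part of these cells in the Lyz2 difference was not tested.

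Lyz2 has a close neighbour copy, Lyz1, and reads can be given to the wrong one. The 2 coding sequences have 447 bases each and differ at 22 of them (95.1% identity), and the longest identical run is 118 bases. Coding bases 61 to 120, the stretch of 60 with the most differences, are shown from the GENCODE transcripts, with capitals at the 9 positions that differ.
Lyz2: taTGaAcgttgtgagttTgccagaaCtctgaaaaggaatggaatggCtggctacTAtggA
Lyz1: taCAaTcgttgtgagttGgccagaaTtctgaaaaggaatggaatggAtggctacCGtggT
Lyz1 was listed at 0 reads in both control files and at 2 reads in each sleep-deprived file. Lyz1 shares 32.8% of the 31-base stretches of Lyz2, and with the reads of both summed the ratio was 2.21.

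No other gene shared 20% of the 31-base stretches of a member. Cd52 shares 10.4% of its stretches with Crybg2 on the opposite strand, and the sources used here do not say whether strand was kept. Crybg2 had 5 reads in every file, and reads within the shared stretches could belong to either gene. Fabp5 shares 7.24% with the processed pseudogene Gm6166, which was at 0 reads in every file.

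**Figure D2:**
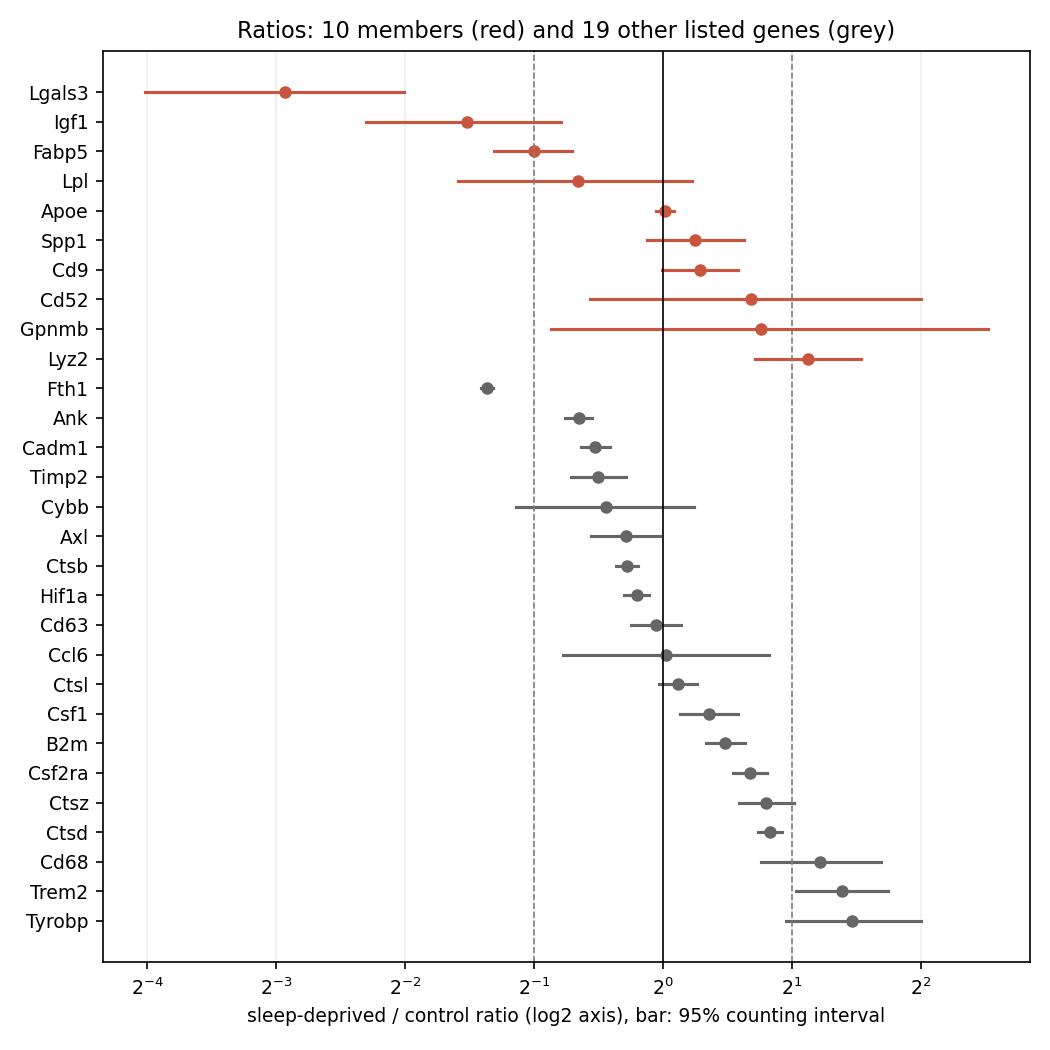
Ratio of sleep-deprived over control for the 10 members (red) and the 19 measured genes of a list of other disease-associated genes (grey), on a log2 axis with 95% counting intervals as bars and dashed lines at 2-fold. Among the members Lgals3 (0.131) and Igf1 (0.349) lie left of the lower line, Fabp5 (0.499) on it, and Lyz2 (2.18) right of the upper one. Among the other genes Tyrobp (2.77) lies farthest right and Fth1 (0.388) farthest left.

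Levels of different genes were compared per length, in TPM. In control the order from high to low was Apoe, Fabp5, Cd9, Lgals3, Spp1, Lyz2, Cd52, Igf1, Lpl and Gpnmb. Apoe stood at 427 TPM, Fabp5 at 30.04, Cd9 at 20.1, Lgals3 at 11.1, Spp1 at 10.5 and Lyz2 at 7.55 TPM. Counting intervals overlapped between neighbours for Lgals3 and Spp1, Spp1 and Lyz2, Lyz2 and Cd52, and Igf1 and Lpl, so those neighbours were not told apart. In the sleep-deprived library Lyz2 took the third place at 19.1 TPM and Lgals3 the seventh at 1.69 TPM, while Igf1 was last at 0.409 TPM. There the intervals of Lyz2 and Fabp5 (16.8 TPM), Fabp5 and Spp1 (14.5 TPM), and Spp1 and Cd52 (7.53 TPM) overlapped, as did those of Lgals3 and Lpl, Lpl and Gpnmb, and Gpnmb and Igf1. Among measured genes Apoe sat at percentile 98.4 of TPM for control and 98.7 for sleep-deprived mice. Lgals3 went from percentile 39.9 to 11.6 and Lyz2 from 32.6 to 48.6.

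Most members were read almost wholly from a single transcript. For Apoe, 3 coding transcripts held at least 10% of its reads. Apoe-209 (1104 bases, 4 exons) took 58.7% (57.1 to 60.3) of the control reads and 63.1% (61.5 to 64.8) of the sleep-deprived ones. Apoe-206, whose start is the one printed above, took 21.6% (20.3 to 23.0) and 18.9% (17.6 to 20.3), and Apoe-205, which starts further in at position 19698407, took 16.0% (14.8 to 17.2) and 13.7% (12.6 to 14.9). The shares moved by less than 5 percentage points while the gene total stayed level. These binomial (Clopper-Pearson) intervals cover counting error only and not the model that divides shared reads.

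The lower count of Fabp5 was seen in both of its annotated transcripts. The coding Fabp5-201 (987 bases) had 184 and 177 reads in control and 79.8 and 79.9 in the sleep-deprived files. Fabp5-202, a retained intron transcript of 3238 bases, had 107 and 114 against 55.2 and 56.1 reads. Its share of Fabp5 reads was 37.8% (32.2 to 43.6) for control and 41.2% (32.8 to 49.9) for sleep-deprived mice, which do not differ beyond their counting error. Per length the coding form was far above the other, at 26.1 against 3.94 TPM in control.

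Spp1-204, which begins at a start of its own at position 104436192, was given 31.6 and 11.4 reads in the control files and 0 in both sleep-deprived files. The gene totals of the 2 control files were 114 and 115 reads, so the model divided nearly the same reads differently. In the sleep-deprived library 0 of 127 reads allows a share of up to 2.36% (3 reads of 127). All 127 were given to Spp1-201. Gpnmb-201 and Gpnmb-203 divided the few Gpnmb reads, with 2.65 and 3.35 in each control file. Lgals3-203 held 97.7% of Lgals3 reads for control and 100% for sleep-deprived mice, and Igf1-202, of 7052 bases, held 96.9% and 100% of Igf1 reads. The difference in these genes therefore lay in their main transcript.

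**Figure D3:**
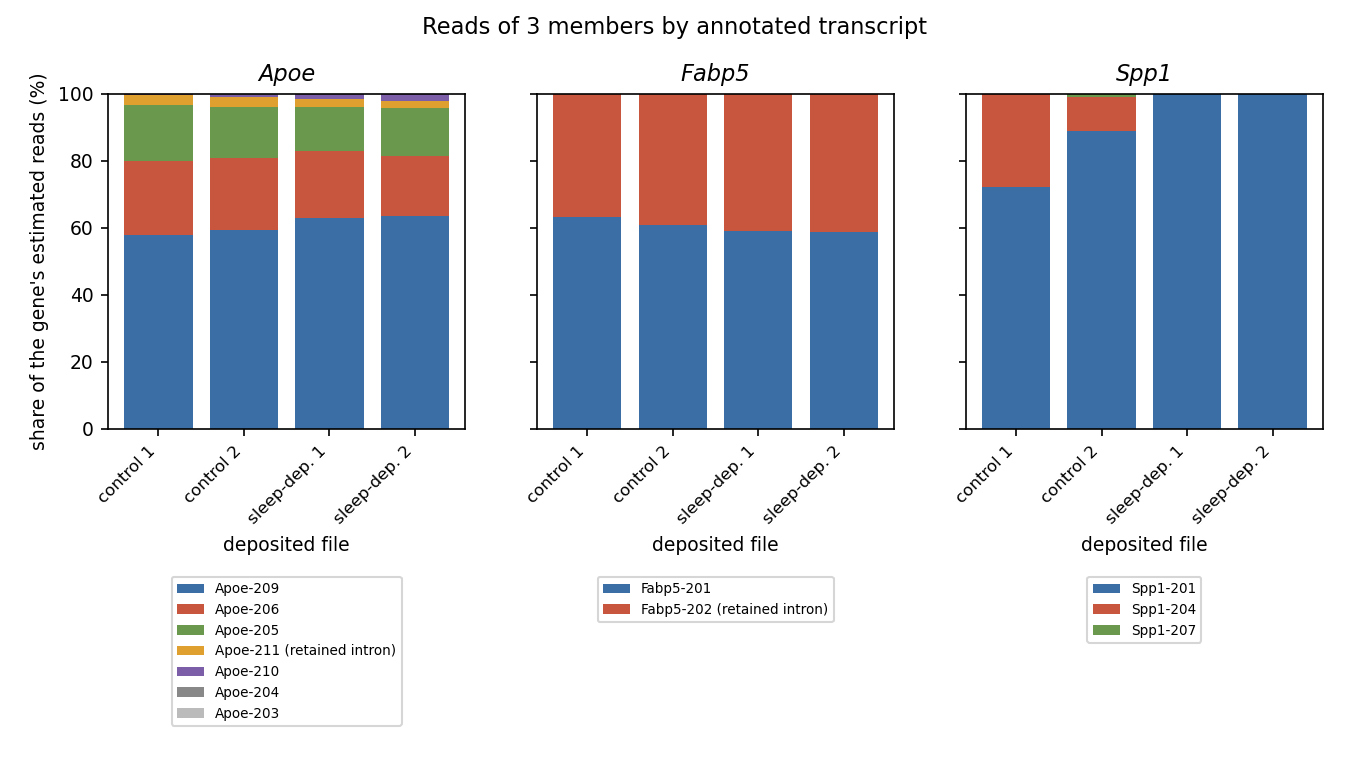
Share of estimated reads of Apoe, Fabp5 and Spp1 on each annotated transcript, in percent, 1 bar per deposited file. Apoe-209 holds 58.7% for control and 63.1% for sleep-deprived mice. Spp1-204 holds part of the bars of both control files and none of the sleep-deprived ones.

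Other genes of the state were taken from a list of 25, of which 19 were measured. Of these 3 were higher and 1 lower, and 15 were not called, against 4.32% higher and 5.56% lower among all measured genes. The median log2 ratio of the 19 was 0.02 against 0.00 for all measured genes. Trem2, the receptor that senses lipid, went from 6.25 CPM in control to 16.3 CPM, which is 2.61-fold (2.05 to 3.36). Its adaptor Tyrobp went from 2.94 to 8.15 CPM, which is 2.77-fold (1.94 to 4.01). The microglia markers described below had a summed ratio of 2.85 (2.71 to 2.99). Cd68, a lysosomal membrane protein of macrophages, had a ratio of 2.33 (1.69 to 3.23), but 1.49 with summed TPM, 1.295 with transcript length as an offset and 4.57 with coding transcripts only. Fth1, the iron-storing ferritin heavy chain, was the 1 lower gene, going from 971 to 377 CPM with a ratio of 0.388 (0.376 to 0.401).

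The lysosomal protease gene Ctsd was not called at 1.78 (1.67 to 1.90) but was called higher with summed TPM, at 2.075. In that setting the median ratio of all measured genes was itself 1.16. The protease gene Ctsb had a ratio of 0.825 (0.776 to 0.877), which turned to 1.24 with summed TPM and 1.07 with transcript length as an offset, so it has no settled direction. Csf2ra, a cytokine receptor chain, was at 1.60 (1.46 to 1.75), the adhesion gene Cadm1 at 0.696 (0.643 to 0.752), the pyrophosphate transporter Ank at 0.635 (0.591 to 0.683) and the hypoxia factor Hif1a at 0.868 (0.812 to 0.927). Of 6 listed receptors and signalling genes measured, 2 were higher and 0 lower, and of 7 lysosomal and protease genes 1 was higher and 0 lower. Among all measured genes 4.32% were higher and 5.56% lower. The other 6 listed genes had too few reads. Among them, named after their values were seen, the lectin receptor Clec7a had 6 reads in each control file and 5 in each sleep-deprived file, the integrin Itgax 2 and 8, and the protease inhibitor Cst7 3 in each control file and 1 and 2 in the sleep-deprived ones. These 3 are among the most typical genes of the state, and they were at the limit of detection in both groups.

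The labelled cell type was checked with 12 microglia markers, all of which were measured. They summed to 145 CPM in each control file and to 413 and 412 CPM in the sleep-deprived files, a ratio of 2.85 (2.71 to 2.99). Of the 12 markers 9 were called higher and 0 lower, against 4.32% and 5.56% of all measured genes. Among the 12, Csf1r, the receptor that microglia need to survive, had a ratio of 2.52 (2.26 to 2.81). Every member had a ratio below the summed one of 2.85. The counting intervals of Lyz2 (1.64 to 2.91), Cd52 (0.675 to 4.00) and Gpnmb (0.549 to 5.73) nevertheless hold 2.85. Trem2 (2.61), Tyrobp (2.77) and Cd68 (2.33) also lay below 2.85, with counting intervals that hold it. Set against 100 CPM of the marker sum in the same library, the Apoe level was 165 CPM for control and 58.4 CPM for sleep-deprived mice, Lyz2 at 3.45 and 2.64, and Lgals3 at 3.93 and 0.180. In such bulk samples with no input analysed, the number of cells of a type, RNA per cell and the yield of the pulldown cannot be told apart.

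Markers of cells that the pulldown was not aimed at were also present. The 9 astrocyte markers summed to 2019 and 2017 CPM in control and to 1196 and 1191 CPM in the sleep-deprived files (0.592, 0.581 to 0.603), with 3 called lower and 0 higher. The 9 oligodendrocyte markers summed to 3595 and 3582 against 2256 and 2250 CPM (0.628, 0.619 to 0.637), with 2 lower. Among all measured genes 5.56% were called lower. The 6 general neuron markers had a summed ratio of 0.862 (0.850 to 0.874), the 5 excitatory neuron markers one of 1.47 (1.41 to 1.53), with a list median of 1.02 and Slc17a7, the most abundant, at 1.71, and the 7 endothelial markers one of 0.984 (0.928 to 1.04). The summed ratio was 0.900 (0.837 to 0.966) for oligodendrocyte precursors, 0.681 (0.639 to 0.725) for mural cells and 0.752 (0.684 to 0.827) for fibroblasts. The ratios of Fabp5 (0.499), Igf1 (0.349) and Lgals3 (0.131) lay below the summed ratios of all 12 marker lists. Single markers spread more widely than the sums, from 0.170 to 1.47 in the oligodendrocyte list and from 0.313 to 1.06 in the fibroblast list. The part of these cell types in the member ratios was not tested.

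**Figure D4:**
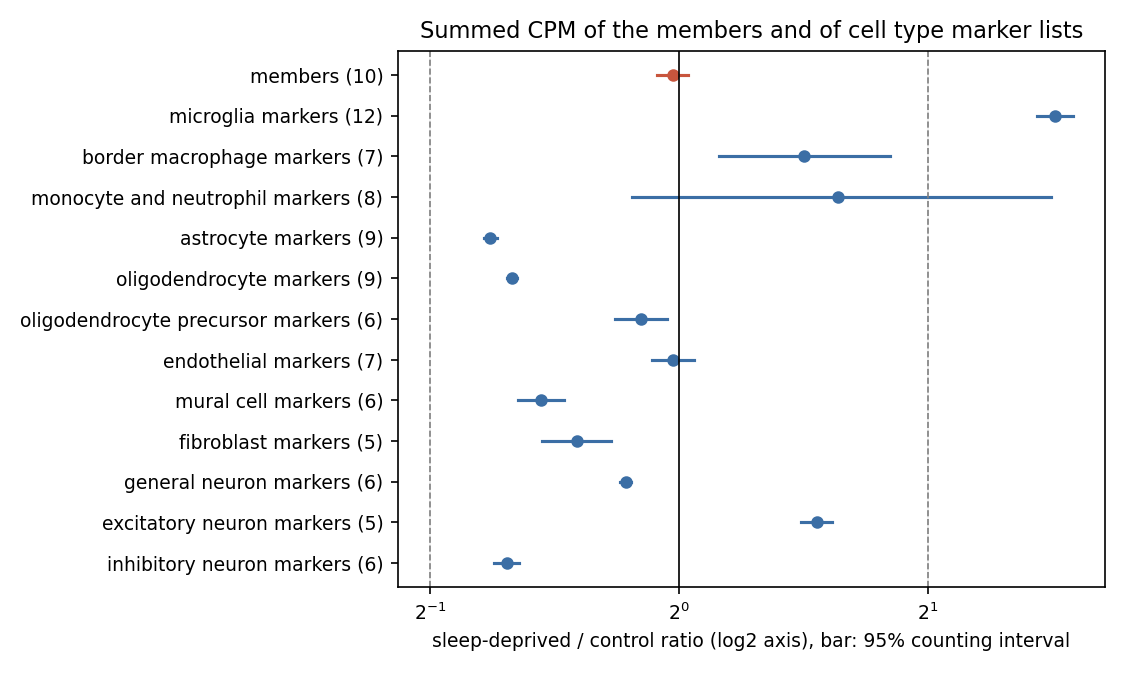
Ratio of summed CPM, sleep-deprived over control, for the 10 members (red) and 12 cell type marker lists (blue, number of genes in brackets), on a log2 axis with 95% counting intervals and dashed lines at 2-fold. The microglia list lies at 2.85, the members at 0.983 and the astrocyte list at 0.592.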

How the data were processed

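The submitters' processing notes name Salmon, DESeq2 and the build mm10, without roles. Per the file headers, each deposited file gives length, effective length, TPM and estimated counts for 116546 transcripts. The estimated counts are the authors' fractional values without normalization, and the TPM values are the authors' length-scaled abundances. For the Salmon version, strand and read layout, the sources used here give nothing.

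Of the transcript identifiers 99.4%, compared with version suffixes removed, were in the GENCODE M21 annotation (GRCm38, the same assembly as mm10). Reads on the others, 0.339% to 0.366% of a file, were left out. Estimated counts were summed per gene, rounded to whole numbers per file and averaged over the 2 files of a group, because those files differed by less than the sampling noise. With 1 library per group the edgeR test, planned only for files that differ beyond sampling noise, was not run. The size rule, planned for files that agree this closely, was used instead. Earlier results of these data had already shown that agreement. The rule used TMM scaling over all genes and filterByExpr with a minimum count of 10 (edgeR 4.0.16, R 4.3.3). Its intervals were exact conditional (Clopper-Pearson) ones (scipy 1.17.1). A library under 3 reads was set to 3. The rule was tested on simulated data. The pass limit of that test was lowered after an earlier form missed it, and was set back for the form used here, which met it. Reads are not independent molecules, so intervals and floors cover counting error only.

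All 10 members were named. Transcripts with at least 10% of a member's reads were named, as were other listed genes that were called and the 6 most abundant that were not. Single markers were to be named only from the 2 most abundant of a list or where at 0 in every file. Lyve1, Ms4a7, Ngp, Clec7a, Itgax and Cst7 lie outside these rules and were named after their values were seen. No gene of like pattern was sought, since 2 conditions give no pattern to rank by. TMM over all genes, rather than measured genes only, and averaging after rounding each file were chosen after results of both ways had been seen. In the earlier form (TMM over measured genes, rounded group means) Gpnmb passed the filter and Fabp5 lost its call with DESeq2 size factors and with no filter. Alternatives were other scalings (DESeq2 1.42.0 size factors among them), filters, units, transcripts, fold rules and files. Members and lists were chosen with earlier results of these data known.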

Additional observations from a re-analysis of the deposited data

How the results depend on the processing

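The values rest on 1 library per group and on counts as low as 6 reads, and this depth limits the members with few reads, such as Gpnmb and Cd52. Lgals3, Igf1 and Lyz2 were called, in the direction reported, under each setting tried: other scalings (DESeq2 size factors, upper quartile, total reads, and TMM over measured genes only, which was added after seeing the data), no filter, coding transcripts only, summed TPM, a transcript length offset, and each file left out. Fabp5 was not called with summed TPM, nor without control file 1 or control file 2. The number of members called was 3 or 4 throughout. With each file left out it ran from 3 to 4, for all measured genes from 1482 to 1492, and for the other listed genes it was 4. With a 1.5-fold rule 3861 measured genes were called (25.9%), against 1473, and 8 of the other listed genes against 4. The members called at 1.5-fold numbered 4. Summed TPM moved the median log2 ratio of all measured genes to 0.21, so its ratios read high by that much. Gad1 and Eno2 were at 2.62 and 0.427 with coding transcripts only, against 0.579 and 1.12. No paired analysis was possible because each group holds 1 independent library and the results come from no test.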
